A study of Rattus norvegicus with 304 samples.

Results

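The livers of rats given the highest TCDD doses and collected at 19 h made up 6 groups, chosen by strain, time and dose alone. Long-Evans rats, which the labels call sensitive to TCDD, had received 50, 100 or 1000 µg/kg, and Han/Wistar rats, called resistant, had received 100, 1000 or 3000 µg/kg. Each group held 4 animals, so the 6 of 36 groups hold 24 of 150 samples on the OpenArray, which runs real-time PCR in nanolitre volumes, and 24 of 154 on the 7900HT, which reads real-time PCR in ordinary plates. Each deposited value sets a group against corn oil vehicle at 19 h of the same strain. That vehicle had 7 Long-Evans and 6 Han/Wistar animals on the OpenArray and 7 of each strain on the 7900HT. The tests against corn oil used the vehicle groups of a strain at all times. All were male rats aged 10 to 12 weeks dosed once by oral gavage, and cDNA with the same 150 sample titles was run on both platforms, which are therefore not independent. The question was which genes had levelled off by these doses, which still moved, and how the strains compared at 100 and 1000 µg/kg.

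The authors' deposited table of a platform gives 1 log2 fold change per gene and group, 0 for corn oil at 19 h by construction, for 49 OpenArray and 39 7900HT targets, of which 38 are shared. The log base is inferred, and 1 unit is then a 2-fold change. Values per animal were not used here, which leaves the spread between animals unknown. Groups were the units of every test, and their number limits the precision. A value is a change within a strain, so untreated levels cannot be compared between strains. The panel holds 1 of the 4 hepatocyte markers looked for (Mug1) and 0 of those for leukocytes, stellate cells, bile duct or endothelium. Fewer cells of a type and less RNA per cell therefore cannot be told apart in these whole-liver samples.

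TCDD, the most potent dioxin, acts through the aryl hydrocarbon receptor (AHR). The ligand-bound receptor enters the nucleus, pairs with ARNT and binds DNA at sites built around the core GCGTG, where it induces enzymes that metabolise foreign compounds, the AHR battery, together with its own repressors Ahrr and Tiparp. Liver is the main site of this response. Han/Wistar rats of the resistant line are known to carry an AHR with an altered transactivation domain, and they survive doses that kill Long-Evans rats while still inducing the classical battery.

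Promoters are shown for 4 genes whose response the results turn on, namely Ahrr, Cyp1b1 and Tiparp, which were called higher on the OpenArray, and Inmt, which was called lower there. On the 7900HT Ahrr was below corn oil. Each line is the 250 bases before the annotated start, read 5′ to 3′ on the gene's strand from RefSeq (GRCr8), with GCGTG, or CACGC for the other strand, in capitals. They lie at chr1:30821969-30822218 on the plus strand, chr6:21094315-21094564 on the plus strand, chr2:152063519-152063768 on the plus strand and chr4:85652756-85653005 on the minus strand.
Ahrr: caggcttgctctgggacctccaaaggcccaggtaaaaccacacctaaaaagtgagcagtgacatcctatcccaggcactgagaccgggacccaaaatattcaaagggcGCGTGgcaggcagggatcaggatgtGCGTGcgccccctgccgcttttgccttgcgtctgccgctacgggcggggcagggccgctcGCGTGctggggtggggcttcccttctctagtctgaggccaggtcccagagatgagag
Cyp1b1: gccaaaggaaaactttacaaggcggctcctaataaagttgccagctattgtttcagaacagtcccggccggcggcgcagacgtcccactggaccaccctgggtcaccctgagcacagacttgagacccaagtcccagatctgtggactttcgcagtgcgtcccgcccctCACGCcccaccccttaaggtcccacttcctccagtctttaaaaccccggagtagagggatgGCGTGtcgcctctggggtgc
Tiparp: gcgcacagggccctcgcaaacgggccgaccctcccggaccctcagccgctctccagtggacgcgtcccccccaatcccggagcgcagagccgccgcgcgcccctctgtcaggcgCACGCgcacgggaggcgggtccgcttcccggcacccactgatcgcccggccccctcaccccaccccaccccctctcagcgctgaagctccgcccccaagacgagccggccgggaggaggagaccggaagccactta
Inmt: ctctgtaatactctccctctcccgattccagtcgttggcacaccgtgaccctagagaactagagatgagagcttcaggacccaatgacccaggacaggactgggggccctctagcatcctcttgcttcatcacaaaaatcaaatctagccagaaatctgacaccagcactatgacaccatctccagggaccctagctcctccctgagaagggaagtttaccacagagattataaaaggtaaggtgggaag
Ahrr holds 3 cores, at 142, 117 and 57 bases before its start, Cyp1b1 holds 2, at 81 and 20, Tiparp holds 1, at 136, and Inmt has none in this window. The genes shown do not stand for the panel. Scn4b, Cyp1a2, Nfe2l2 and Cyp2a1, called higher in both strains, have no core in this window, while Glud1 and Tpm1, called lower, hold it. Of the 50 genes on either platform 43 had a promoter in the table, and 19 of these (44.2%) held the core on either strand, against 8666 of 33469 promoters of the same length (25.9%). Cyp1a1, Aldh3a1, Derl1, Ern1, Fdft1, Lasp1 and Nrbp2 had no promoter there and are in none of the shares. The longer motif TNGCGTG, which contains the core, was in 4 of 43 (9.30%) and in 1370 of all (4.09%). These are matches of letters and not sites shown to bind the receptor.

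Nearly the whole OpenArray panel stood apart from corn oil at the high doses, and in the same direction in both strains. In Long-Evans 44 of 49 targets (89.8%) passed, 28 higher and 16 lower, and in Han/Wistar 39 (79.6%) passed, 26 higher and 13 lower. All 26 targets called higher and all 13 called lower in Han/Wistar were also called in Long-Evans, where they are 92.9% and 81.2% of the calls. Cmkor1, Gfer, Fdft1, Nrbp2 and Nudt4 were called in Long-Evans alone, a difference between strains that these counts do not test, and Ahr, Col18a1, Cyb5a, Exoc3 and Hagh were called in neither (Nrbp2, Nudt4, Col18a1, Cyb5a and Hagh are named after their values were seen). The test was limma on the 3 high-dose groups of a strain against its corn oil groups at all times (3 in Long-Evans, 5 in Han/Wistar), with Benjamini-Hochberg adjustment over the platform and a threshold of 0.05. Dose groups differ in time of collection as well from every vehicle group not taken at 19 h. Over the panel the Han/Wistar vehicle mean was -0.38 at 1.5 h and -0.37 at 384 h, against 0 at 19 h. Bbs2 and Derl1, named after their values were seen, were called higher in Han/Wistar though near their 19 h vehicle. They stood there at 0.23, 0.06 and -0.06 and at 0.23, 0.001 and 0.17 by the authors' deposited table. Nrbp2, not called there, stood at -1.15, -0.76 and -1.11, with vehicle groups down to -1.13. Against the lowest doses at the same 19 h (0.001 and 0.01 µg/kg), 43 of 48 targets (89.6%) were called in Long-Evans, 27 higher and 16 lower, and 33 (68.8%) in Han/Wistar, 22 higher and 11 lower.

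The split depended on the scale, because the panel mean itself was 0.78 to 0.99 over Long-Evans high doses and 0.76 to 0.86 over Han/Wistar ones. With each group centred on that mean, 14 targets were higher and 21 lower in Long-Evans, against 13 and 25 in Han/Wistar, and with the median as the centre the counts were 19 and 18, and 18 and 19. Against the lowest doses the mean-centred counts were 9 and 27 in Long-Evans, against 10 and 25 in Han/Wistar, and the median-centred counts were 17 and 17, and 19 and 18. Directions below are for the values as deposited unless a change with centring is given.

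The list used here as the AHR battery is wider than the induced enzymes described above. It also holds the repressors Ahrr and Tiparp, and Exoc3, Inmt, Fmo1 and Ugt1a1, which were not called higher here. Of its 12 members 8 were higher and 3 lower in each strain, also under both centrings, a share called that is near the 89.8% of all targets in Long-Evans and above the 79.6% in Han/Wistar. Its median fitted difference from corn oil was 2.92 in Long-Evans and 2.98 in Han/Wistar on the log2 scale, beside 0.60 and 0.54 over all targets. The list was chosen with earlier results of these data known, so this comparison is not an independent test. Cyp1a1, the classical AHR-induced P450, stood at 9.23, 9.47 and 9.16 at 50, 100 and 1000 µg/kg in Long-Evans, and at 9.99, 9.59 and 9.71 at 100, 1000 and 3000 µg/kg in Han/Wistar, by the authors' deposited table. The vehicle groups spanned 0 to 2.16 in Long-Evans, against -1.48 to 3.47 in Han/Wistar, by the authors' deposited table, far below any high-dose group. The fitted difference was 8.40 (SE 0.95, limma adjusted p = 9.51e-06) in Long-Evans and 8.97 (SE 0.85, 1.31e-06) in Han/Wistar.

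Cyp1b1, a P450 that is low in untreated liver, and Aldh3a1, an aldehyde dehydrogenase, moved as far. Cyp1b1 was at 8.20, 9.60 and 8.46 in Long-Evans, against 10.62, 10.44 and 10.51 in Han/Wistar, by the authors' deposited table, for the same doses in the same order. Aldh3a1 was at 9.30, 9.64 and 9.07 in Long-Evans, against 10.54, 9.89 and 10.35 in Han/Wistar, by the authors' deposited table. Corn oil was less steady for both, reaching from -0.95 to 2.79 in Long-Evans and from -1.10 to 5.05 in Han/Wistar for Cyp1b1 by the authors' deposited table.

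Nqo1, a quinone reductase, had the smallest error of the battery. It was at 3.49, 3.47 and 3.44 in Long-Evans, against 3.78, 3.29 and 3.49 in Han/Wistar, by the authors' deposited table. Its fitted difference from corn oil was 3.56 (SE 0.14, limma adjusted p = 5.50e-10) in Long-Evans and 3.54 (SE 0.12, 1.62e-10) in Han/Wistar. Nfe2l2, the oxidative stress regulator that also controls Nqo1, was at 1.66, 1.84 and 1.67 in Long-Evans, against 1.02, 1.55 and 1.20 in Han/Wistar, by the authors' deposited table. Cyp1a2, the hepatic P450 that metabolises caffeine, was at 3.38, 3.88 and 3.10 in Long-Evans, against 4.30, 3.19 and 2.44 in Han/Wistar, by the authors' deposited table, the only battery member called higher whose Han/Wistar values dropped at each step.

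Of the 6 genes listed for AHR signalling 3 were on the OpenArray, and 2 of them were higher in each strain, beside 28 of 49 targets in Long-Evans and 26 of 49 in Han/Wistar. Tiparp, a mono-ADP-ribosyltransferase, stood at 2.38, 3.11 and 2.57 in Long-Evans, against 3.02, 3.45 and 3.31 in Han/Wistar, by the authors' deposited table. Ahrr, the AHR repressor that competes for ARNT, stood at 7.20, 7.86 and 5.88 in Long-Evans, against 4.95, 2.59 and 3.72 in Han/Wistar, by the authors' deposited table. Every Long-Evans group lay above every Han/Wistar group for Ahrr. Its fitted difference from corn oil was 6.62 (SE 0.80, limma adjusted p = 2.45e-05) in Long-Evans and 2.82 (SE 0.75, 0.00513) in Han/Wistar, from fits that lack the Han/Wistar corn oil group at 1.5 h, which has no value. Ahr itself was at -0.02, 0.56 and -0.17 in Long-Evans, against -0.08, -0.45 and -0.06 in Han/Wistar, by the authors' deposited table. It was not called in either strain (limma adjusted p = 0.756 and 0.334), and with mean-centred groups it was called lower in both.

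The 3 battery members that were lower carry out phase I and II reactions of the liver. Inmt, an indolethylamine methyltransferase, was at -2.28, -3.95 and -3.76 in Long-Evans, against -4.47, -4.96 and -5.16 in Han/Wistar, by the authors' deposited table. Its fitted difference was -3.70 (SE 0.49, limma adjusted p = 3.15e-05) in Long-Evans and -5.63 (SE 0.44, 2.53e-07) in Han/Wistar. Fmo1, a flavin monooxygenase, was at -0.91, -0.74 and -1.52 in Long-Evans, against -0.62, -0.95 and -0.65 in Han/Wistar, by the authors' deposited table. Ugt1a1, a glucuronosyltransferase, was at -0.96, -0.89 and -1.32 in Long-Evans, against -1.09, -1.40 and -1.63 in Han/Wistar, by the authors' deposited table. Exoc3, an exocyst subunit, was the member with no call in either strain (limma adjusted p = 0.110 in Long-Evans and 0.161 in Han/Wistar).

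Of the 7 targets listed under amino acid and sugar metabolism, 3 were higher and 4 lower in Long-Evans, against 3 and 3 in Han/Wistar, near the shares of the whole panel (89.8% and 79.6%). The list is wider than its name, since it also holds Fdft1, Mug1 and Inmt, which is counted in the AHR battery too. The median of the listed targets was -0.62 in Long-Evans and -0.03 in Han/Wistar. With mean-centred groups the Han/Wistar counts were 2 higher and 4 lower, beside 13 and 25 of all 49 targets. Ccbl1, a kynurenine aminotransferase now called Kyat1, was at 1.60, 2.15 and 1.78 in Long-Evans, against 1.56, 1.62 and 1.50 in Han/Wistar, by the authors' deposited table. Pmm1, which converts mannose phosphates, was at 1.62, 1.33 and 1.45 in Long-Evans, against 1.22, 1.47 and 1.48 in Han/Wistar, by the authors' deposited table. Mawbp, now called Pbld1, had 1.44, 1.25 and 1.26 in Long-Evans, against 1.23, 1.52 and 1.34 in Han/Wistar, by the authors' deposited table. On the lower side, Glud1, glutamate dehydrogenase, was at -1.43, -1.12 and -1.56 in Long-Evans, against -0.79, -1.11 and -1.06 in Han/Wistar, by the authors' deposited table. Mug1, a secreted protease inhibitor of rodent liver, was at -1.02, -0.73 and -1.22 in Long-Evans, against -0.97, -1.52 and -1.99 in Han/Wistar, by the authors' deposited table. Fdft1, squalene synthase, had fitted differences of -0.62 (limma adjusted p = 0.0123) in Long-Evans and -0.03 (0.877) in Han/Wistar. Its Han/Wistar high doses were at -0.56, -0.53 and -0.43 and its vehicle groups at other times at -1.06 to -0.39 by the authors' deposited table. Against the lowest doses at 19 h Fdft1 was called lower in both strains, by -0.84 (limma adjusted p = 0.00216) in Long-Evans and -0.56 (0.0222) in Han/Wistar.

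Of the 3 receptors and channels, Scn4b, a sodium channel beta subunit, was at 6.18, 7.14 and 6.35 in Long-Evans, against 5.03, 4.85 and 4.68 in Han/Wistar, by the authors' deposited table. Sdc1, the heparan sulphate proteoglycan syndecan, was lower in both strains, at -1.62, -1.14 and -1.67 in Long-Evans, against -0.69, -1.34 and -1.19 in Han/Wistar, by the authors' deposited table. Cmkor1 (current symbol Ackr3), which takes up chemokines, was called in Long-Evans (1.05, SE 0.39, limma adjusted p = 0.0238), where it lost the call in 6 of 18 alternatives, and its Han/Wistar values of -0.53, 1.08 and 0.54 by the authors' deposited table lay on both sides of 0. In the protein quality control list of 4, Ern1, an endoplasmic reticulum stress sensor, was lower in both strains (-0.85 in Long-Evans and -0.42 in Han/Wistar against corn oil). Psmb4, a proteasome subunit, was higher by 1.01 and 0.80 and Uvrag, an autophagy gene, by 0.66 and 0.71, and Gfer, a mitochondrial sulfhydryl oxidase, was higher in Long-Evans only by call (0.37, limma adjusted p = 0.0188, against 0.12 and 0.345 in Han/Wistar). With mean-centred groups 0 members of the list were higher and 2 lower in each strain. Of all 49 targets 14 were then higher and 21 lower in Long-Evans, against 13 and 25 in Han/Wistar. The sign turned for Uvrag and Gfer in both strains and for Psmb4 in Han/Wistar, so the direction of these small changes depends on the scale. The baseline mattered too, since against the lowest doses 1 member was higher and 1 lower in Long-Evans and 1 higher in Han/Wistar. Over all targets 89.6% and 68.8% were called in that comparison. Psmb4 was then at 0.37 (limma adjusted p = 0.164) in Long-Evans and -0.05 (0.857) in Han/Wistar, Gfer was not called in either strain, and Ern1 was not called in Han/Wistar (-0.32, 0.154).

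Between the high doses no common slope was called on the OpenArray, but only part of the panel could be shown to be level. A slope was fitted to the 6 high-dose groups with a common rate per 10-fold dose and a strain offset, and a target was called flat where the 95% interval of its slope lay within ±0.5 log2 units per 10-fold dose. By this rule 26 of 49 targets were flat and 23 were undetermined, with a median slope of -0.03. In this common slope 0 were still moving by limma at an adjusted p of 0.05 (0.0%), where 5 had an unadjusted p under 0.05. Of the 39 targets called against corn oil in both strains 21 were flat. In the AHR battery only Cyp1a1, Nqo1 and Nfe2l2 were flat. Ahrr, Aldh3a1, Cyp1a2, Cyp1b1, Tiparp, Inmt, Exoc3, Fmo1 and Ugt1a1 were undetermined, as was Scn4b. With a margin of ±1 in place of ±0.5, 44 of 49 were flat. The count of flat targets leaned on single groups, since it was 0 without Long-Evans 1000, 3 without Han/Wistar 100 and 10 without Han/Wistar 3000, and 1 target was called moving without Han/Wistar 3000 (Ahrr), Long-Evans 1000 or Long-Evans 50 (Cyp1a2 in both cases).

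Among the flat targets were Cyp1a1 (slope -0.17, 95% interval -0.49 to 0.14), Nqo1 (-0.15, -0.47 to 0.17), Nfe2l2 (0.09, -0.28 to 0.45), Ccbl1 (-0.01, -0.38 to 0.36), Pmm1 (0.07, -0.25 to 0.39) and Mawbp (0.01, -0.30 to 0.33). The 5 called targets with the narrowest range over all 6 groups were Lasp1, an actin-binding protein (range 0.25), Mawbp (0.28), Perp, an apoptosis effector of p53 (0.33), Ern1 (0.34) and Tpm1, a tropomyosin (0.38). Perp was at 1.04, 0.93 and 1.04 in Long-Evans, against 0.84, 1.17 and 1.01 in Han/Wistar, by the authors' deposited table, and with mean-centred groups its sign turned in Han/Wistar. The median range within a strain was 0.34 in Long-Evans and 0.38 in Han/Wistar over all 49 targets.

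**Figure D1:**
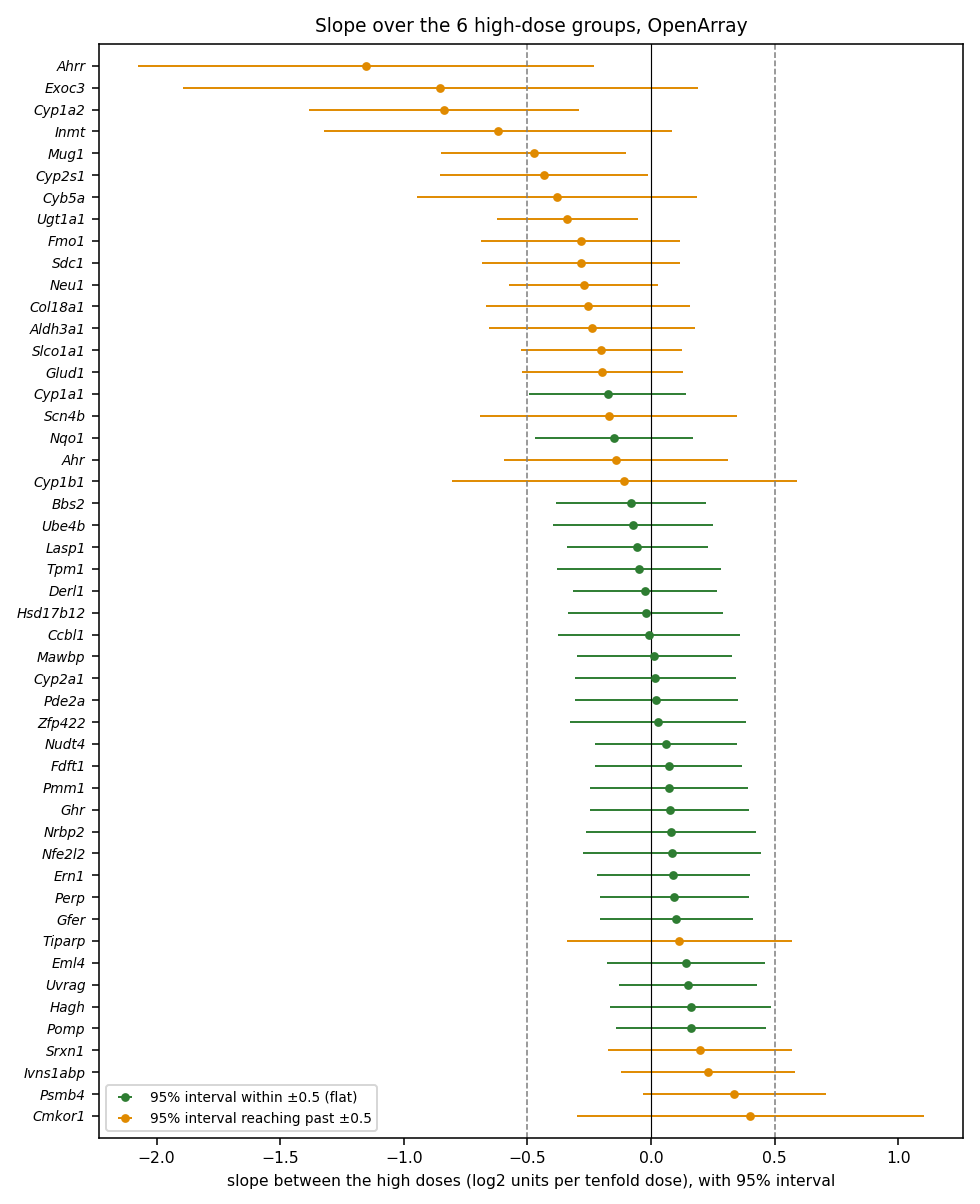
Each point is the slope of 1 OpenArray target over the 6 high-dose groups, in log2 units per 10-fold dose, with its 95% interval, and the dashed lines mark ±0.5. The 26 green intervals lie within the lines, and the orange ones that also reach past ±1 belong to Ahrr, Exoc3, Cyp1a2, Inmt and Cmkor1.

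The steepest common slopes pointed down, and none passed adjustment. Ahrr had -1.15 per 10-fold dose (SE 0.39, limma adjusted p = 0.313), Exoc3 -0.85 (SE 0.44, 0.514), Cyp1a2 -0.84 (SE 0.23, 0.313), Inmt -0.62 (SE 0.30, 0.469) and Mug1 -0.47 (SE 0.16, 0.313). For Inmt and Mug1, which were already below corn oil, a negative slope is a further fall, while for Ahrr and Cyp1a2 it is a smaller induction. All 5 were undetermined by the ±0.5 rule, and the intervals of Ahrr, Exoc3, Cyp1a2 and Inmt reached past -1. At the shared doses alone (100 and 1000 µg/kg in both strains), 4 targets were called, all lower at 1000, and these were Ahrr (-2.17, limma adjusted p = 0.00178), Exoc3 (-1.93, 0.0134), Cyp1a2 (-0.94, 0.0328) and Cyp2s1, a P450 (-0.79, 0.0421). That fit has 4 groups and leaves out 50 and 3000 µg/kg.

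From 50 to 100 µg/kg in Long-Evans 2 targets moved by at least 1, Inmt by -1.67 and Cyp1b1 by 1.40. The step to 1000 from 100 µg/kg was downward for 23 targets in both strains and upward for 13 in both, of 49. In Long-Evans 3 targets moved by at least 1 at this step (Ahrr, Cyp1b1 and Exoc3), and in Han/Wistar 4 did (Ahrr, Cmkor1, Cyp1a2 and Exoc3). From 1000 to 3000 µg/kg in Han/Wistar 3 targets moved by at least 1, namely Ahrr, Exoc3 and Cyb5a. Exoc3 was at 1.36, 1.77 and 0.34 in Long-Evans, against 1.48, -0.95 and 0.77 in Han/Wistar, by the authors' deposited table. Cyb5a, cytochrome b5, named after its values were seen, was at 0.59 and 0.58 at 100 and 1000 µg/kg and at -0.61 at 3000 µg/kg in Han/Wistar by the authors' deposited table, so 1 group of 4 animals carries that drop. No slope difference between strains passed (0.0% by limma, with 2 targets at an unadjusted p under 0.05), the widest being Cmkor1 (Long-Evans minus Han/Wistar -1.02, SE 0.44, adjusted p = 0.996) and Cyp1a2 (0.87, SE 0.41, 0.996), and without Han/Wistar 100 Exoc3 was called. With a separate slope per strain, Cyp1a2 was called moving in Han/Wistar (-1.23 per 10-fold dose, SE 0.27, limma adjusted p = 0.00438). In Long-Evans it had -0.36 (SE 0.30, 0.992), and the lowest limma adjusted p there was 0.155, for Ahrr.

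**Figure D2:**
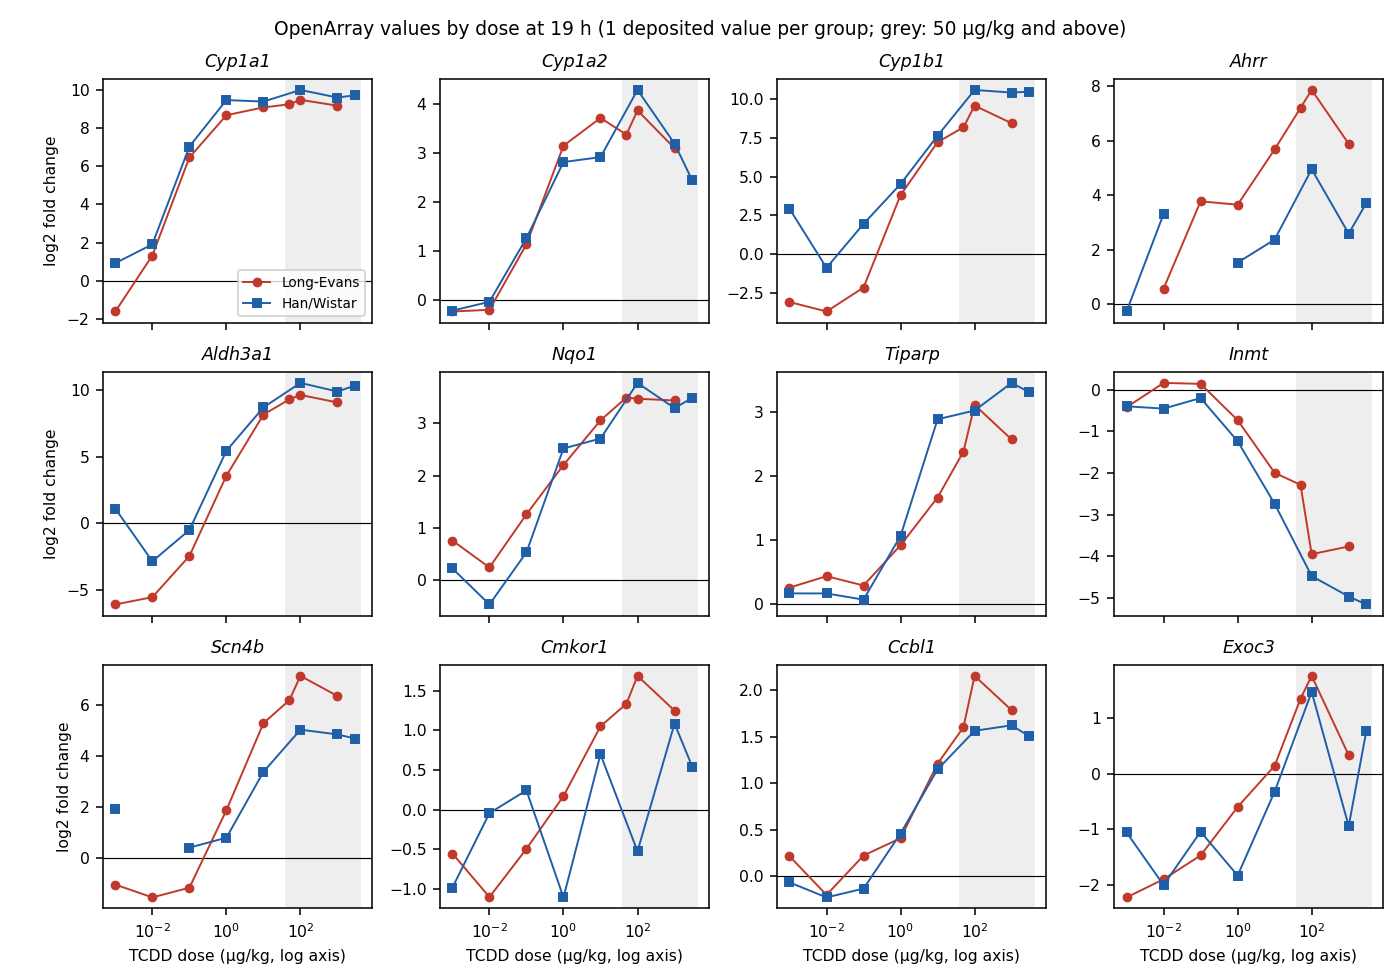
OpenArray log2 fold change against corn oil at 19 h (1 deposited value per group, so no error bars) by TCDD dose on a log axis for 12 targets, in Long-Evans and Han/Wistar, with 50 µg/kg and above in grey and breaks where no value is given. Cyp1a1 lies between 9.16 and 9.99 across the grey area, whereas Inmt lies at -2.28 at 50 µg/kg in Long-Evans and at -5.16 at 3000 µg/kg in Han/Wistar.

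For many targets the high doses still lay apart from the middle ones. The high doses were set against the middle doses (1 and 10 µg/kg), with both strains averaged, and limma called 21 of 48 targets (43.8%), 20 higher and 1 lower. Of the AHR battery 6 members were called higher (Aldh3a1, Cyp1b1, Exoc3, Nfe2l2, Nqo1 and Tiparp) and 1 lower (Inmt), with a median difference of 0.48 beside 0.24 over all targets, while Ahrr could not be fitted because the Han/Wistar group at 0.1 µg/kg has no value. The split again moved with scale, to 8 higher and 11 lower with mean-centred and 9 and 11 with median-centred groups, and to 4 and 2 battery members in both. Against 10 µg/kg alone the calls shrank to 3, namely Cyp2a1, a steroid-hydroxylating P450, and Scn4b, which were higher, and Inmt, which was lower. Within 1 strain there were 2 calls of 48 in Han/Wistar (4.17%), Cyp2a1 and Inmt, with 17 targets at an unadjusted p under 0.05, and 0 in Long-Evans by limma (0.0%), with 16 at an unadjusted p under 0.05. Both Han/Wistar calls were lost without any 1 of the 3 Han/Wistar high-dose groups, and Inmt was called in Long-Evans without the group at 50 µg/kg.

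Cyp1a1 differed little between the middle and high doses. At 1 and 10 µg/kg it had 8.66 and 9.07 in Long-Evans, against 9.46 and 9.38 in Han/Wistar, by the authors' deposited table, close to its high-dose values, and was not called (high minus middle 0.0623 to 0.425 over the alternatives). Cyp1b1 and Aldh3a1 rose further, by 3.83 (SE 0.90, limma adjusted p = 0.0107) and 3.33 (SE 1.00, 0.0261) between the middle and high doses. Scn4b rose by 2.87 (SE 0.68, limma adjusted p = 0.0112, in a fit without the Han/Wistar group at 0.01 µg/kg, which has no value), Tiparp by 1.34 (SE 0.32, 0.0107), Ccbl1 by 0.90 (SE 0.20, 0.0107) and Nqo1 by 0.87 (SE 0.20, 0.0107). Inmt fell by 2.42 (SE 0.41, limma adjusted p = 0.00364), and this call held under all 10 alternatives run (adjusted p 0.00148 to 0.0484), as did those of Cyp2a1 (0.00375 to 0.0461) and Scn4b (0.0138 to 0.0461).

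The strain difference, Long-Evans minus Han/Wistar, was small for most targets and large for a few. Ahr, Cmkor1 and Gfer at 100 µg/kg and Exoc3 at 1000 µg/kg lay above 0 in one strain and below it in the other. At 100 and 1000 µg/kg, 37 of 49 targets had the same sign of Long-Evans minus Han/Wistar at both doses, 25 higher and 12 lower in Long-Evans. The absolute difference had a median of 0.29 at 100 and 0.24 at 1000 µg/kg, and it was at least 1 at both doses for Ahrr, Cyp1b1 and Scn4b. High-dose values of the strains did not overlap for 20 of 49 targets. That count is not a test, since the doses differ in part and all values of a strain share 1 corn oil group. In the fit over the 6 high-dose groups at equal dose, limma called 4 targets (8.16%). Ahrr (2.55, SE 0.51) and Scn4b (1.60, SE 0.29) were higher and Cyp1b1 (-1.83, SE 0.39) and Aldh3a1 (-1.07, SE 0.23) lower in Long-Evans, each with a limma adjusted p of 0.0288. Vehicle groups were unsteady for these targets, as given above for Cyp1b1. They spanned 0 to 1.07 in Long-Evans and -0.26 to 2.29 in Han/Wistar for Ahrr. For Scn4b they spanned -0.52 to 2.06 and 0 to 2.42, and for Aldh3a1 -3.26 to 1.87 and -3.54 to 2.62.

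At 100 µg/kg Ahrr differed by 2.91 and at 1000 µg/kg by 3.29, Scn4b by 2.11 and 1.50, Cyp1b1 by -1.02 and -1.98, and Aldh3a1 by -0.91 and -0.82. Next in size were Cmkor1 (1.29, SE 0.39, limma adjusted p = 0.0958) and Inmt (1.17, SE 0.39, 0.110), which were not called. Cmkor1 differed by 2.21 at 100 and by 0.16 at 1000 µg/kg. Nqo1 differed by -0.30 and 0.15 and Cyp1a2 by -0.42 and -0.09 at these doses, and neither was called. All 4 calls were lost without Han/Wistar 100 (limma adjusted p = 0.367 to 0.479) and with robust variance moderation, while the estimates without Han/Wistar 100 were 2.96 for Ahrr, 1.67 for Scn4b, -1.83 for Cyp1b1 and -0.92 for Aldh3a1, and robust moderation leaves estimates as they are. Aldh3a1 was also lost without Long-Evans 1000 (0.321) and Cyp1b1 without Han/Wistar 1000, and 7 targets were called with median-centred groups.

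**Figure D3:**
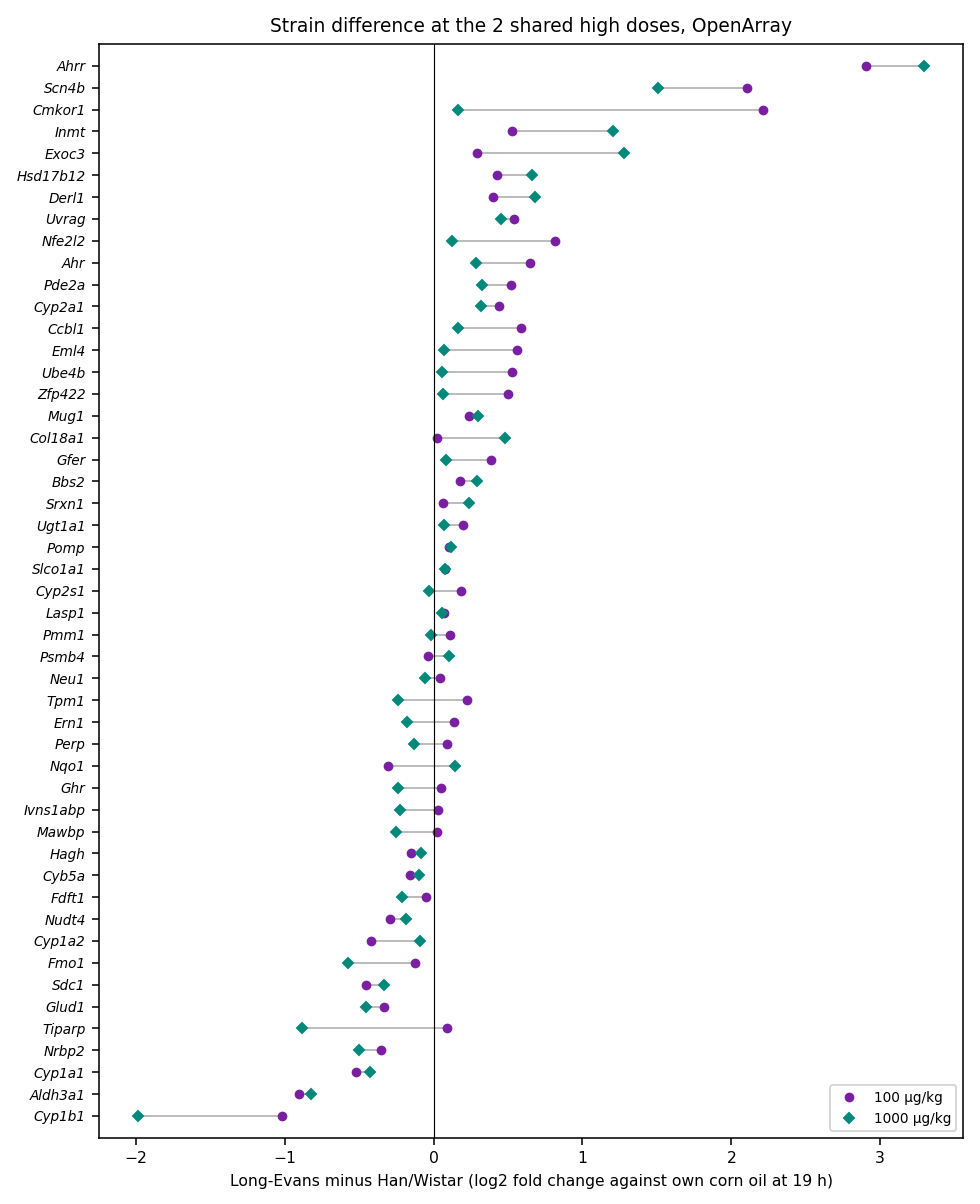
Long-Evans minus Han/Wistar of the OpenArray log2 fold change for each of 49 targets at 100 µg/kg (circles) and 1000 µg/kg (diamonds), joined by a line. Ahrr and Scn4b lie at least 1 above 0 and Cyp1b1 at least 1 below 0 at both doses, and Cmkor1 lies at 2.21 and 0.16.

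Each strain's values share the error of its own corn oil group at 19 h, which is not in the spread of that fit, so its p-values are too small. The rise from the lowest to the high doses cancels that error, and by limma 0 of 48 targets differed between strains in it (0.0%), with 1, Scn4b, at an unadjusted p under 0.05 (4.90 more in Long-Evans, SE 1.54, adjusted p = 0.531). Ahrr, the largest of the called strain differences, could not be fitted in the rise and was not checked in this way. For Cyp1b1 the rise was 2.66 larger in Long-Evans (SE 1.79, adjusted p = 0.669) and for Aldh3a1 4.02 larger (SE 2.00, 0.669), the opposite sign of their difference at the high doses. At 0.001 and 0.01 µg/kg Cyp1b1 had -3.11 and -3.72 in Long-Evans, against 2.93 and -0.90 in Han/Wistar, by the authors' deposited table. Aldh3a1 had -6.10 and -5.55 in Long-Evans, against 1.10 and -2.86 in Han/Wistar, by the authors' deposited table. The strain order of these 2 targets thus depends on whether corn oil or the lowest doses serve as the baseline.

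The 7900HT gave fewer calls from wider values. Against corn oil limma called 7 of 39 targets in Long-Evans (17.9%), 4 higher and 3 lower, and 10 in Han/Wistar (25.6%), 4 higher and 6 lower. Cyp1a1, Cyp1a2 and Cyp1b1 were higher and Ern1, Glud1 and Sdc1 lower in both strains, as on the OpenArray. Tiparp was called higher in Long-Evans alone, and in Han/Wistar alone Derl1 was called higher and Ahrr, Inmt and Ivns1abp lower. The Ahrr call (-10.40, SE 3.43, limma adjusted p = 0.0455) ran opposite to the OpenArray, where Ahrr was called higher in both strains, and in Long-Evans it was -6.59 (SE 3.67, 0.211) on the 7900HT and not called. Cyp1a1 was at 12.39, 5.77 and 12.54 in Long-Evans, against 10.42, 7.14 and 12.46 in Han/Wistar, by the authors' deposited table. Inmt was at -0.18, -3.92 and -1.42 in Long-Evans, against -2.88, -4.92 and -4.62 in Han/Wistar, by the authors' deposited table. The median range within a strain was 2.93 in Long-Evans and 2.28 in Han/Wistar, against 0.34 and 0.38 on the OpenArray, and 0 of 39 targets could be called flat at either margin. Every slope there had the same SE of 1.40, so no interval could lie within ±1 whatever the values. In simulated 7900HT data a slope of 2 log2 units per 10-fold dose was called in 4% of cases. Flat and moving targets therefore cannot be told apart on this platform. Limma called 0 slopes (0.0%, 0 at an unadjusted p under 0.05), 0 differences from the middle doses (0.0%, 2) and 0 strain differences at the high doses (0.0%, 1). The rise from the lowest doses differed between strains for 1 of 37 targets (2.7%), Aldh3a1, with -13.0 in Long-Evans minus Han/Wistar (SE 2.90, limma adjusted p = 0.0251).

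The Long-Evans group at 100 µg/kg stood apart from its neighbours on the 7900HT. Its median over the 38 shared targets was 0.73, against -2.27, -1.41 and -1.45 at 10, 50 and 1000 µg/kg, while on the OpenArray the same groups had 0.61, and 0.46, 0.66 and 0.60. The absolute difference between 50 and 1000 µg/kg had a median of 0.16 over the 39 targets, against 2.90 between 50 and 100 µg/kg and 2.80 between 100 and 1000 µg/kg. Without that group the Long-Evans calls against corn oil were 20 (6 higher, 14 lower) and, since both strains share 1 estimate of the spread, the Han/Wistar calls were 19 (6 higher, 13 lower). Calls in Long-Evans were also 1 without the group at 50 or at 1000 µg/kg or without corn oil at 19 or 96 h, and 2 without corn oil at 240 h. In Han/Wistar they were 2 without 3000 µg/kg, 3 without corn oil at 19 or 240 h, 4 without corn oil at 384 h, 5 without corn oil at 96 h, 6 without Long-Evans 50, Long-Evans 1000 or Long-Evans corn oil at 19 or 96 h, and 18 without corn oil at 1.5 h.

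**Figure D4:**
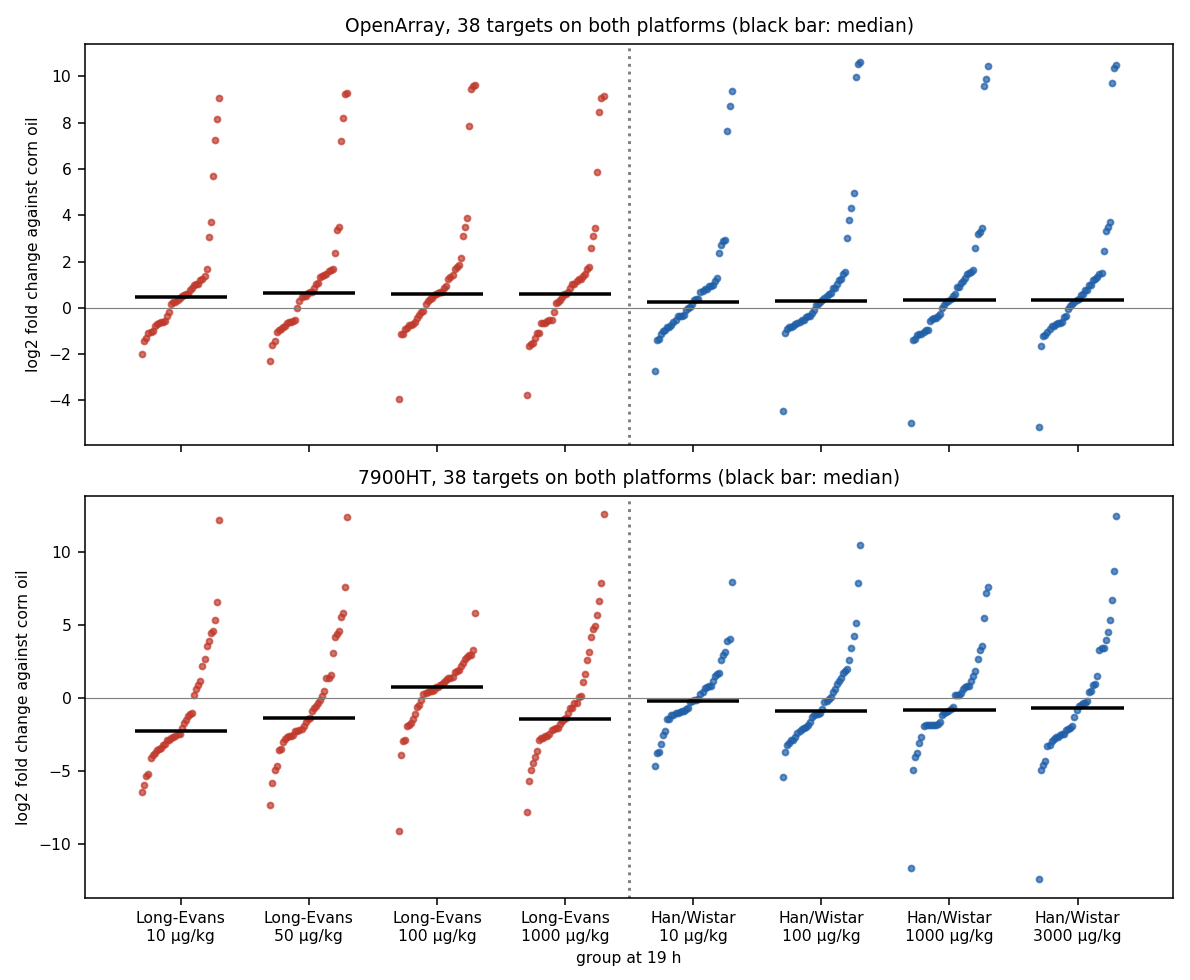
Log2 fold change against corn oil at 19 h of the 38 targets measured on both platforms, 1 point per target and group, for the OpenArray (top) and the 7900HT (bottom), with the median as a black bar. On the 7900HT the Long-Evans group at 100 µg/kg has its median at 0.73, while the other 3 Long-Evans groups shown have theirs between -2.27 and -1.41.

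Of shared targets called higher on the OpenArray, 11 of 22 had the same sign on the 7900HT in Long-Evans (50.0%) and 13 of 20 in Han/Wistar (65.0%). Of those called lower, 11 of 12 (91.7%) had it in each strain, where 63.2% and 57.9% of all shared targets were below 0 on the 7900HT. In the Long-Evans group at 100 µg/kg alone, 19 of 22 higher and 7 of 12 lower calls had the same sign, against 10 of 22 and 10 of 12 over the other 2 groups. The widest gap in the mean over the high doses, 7900HT minus OpenArray, was in Ahrr, at -15.1 in Long-Evans, against -13.6 in Han/Wistar. It was -5.81 and -5.45 for Aldh3a1, -3.35 for Sdc1 in Long-Evans and 3.92 for Cyp2s1 in Han/Wistar. The strain difference of Ahrr was not called on the 7900HT, where it stood at -7.31, -9.11 and -7.81 in Long-Evans, against -5.45, -11.64 and -12.42 in Han/Wistar, by the authors' deposited table. Arnt, the partner of AHR and measured on the 7900HT only, was at 0.79, -0.76 and 0.87 in Long-Evans, against -0.11, 1.13 and 0.17 in Han/Wistar, by the authors' deposited table, and was not called.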

How the data were processed

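Liver RNA was reverse transcribed and quantified by real-time PCR, per the labels' protocols, on 2 platforms. The deposited tables hold, per the file headers, 1 value per gene, strain, time and dose, taken to be a log2 ratio that the authors computed against the strain's own 19 h vehicle group. How reference genes, failed wells and animals were combined is not given in the sources used here. R 2.12.2 is named in the submitters' processing notes. The raw cycle tables have 304 columns whose animal codes match no label, and none was used.

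Each value was joined to its group by strain, time and dose. The members, gene lists and naming rule were chosen with earlier results of these data known. Fits used R 4.3.3 and limma 3.58.1 (lmFit, eBayes), with deposited gaps left missing. The fits were cell means of strain by treatment (corn oil), strain plus log10 dose, with an interaction for slope differences, and strain by 4 dose classes, with 0.1 µg/kg as a class of its own. All tests were two-sided and adjusted over all targets of a platform. Named targets are list members, the 10 largest called changes per strain, the 5 largest slopes and strain differences, the 5 narrowest ranges and the 3 widest platform gaps per strain. The alternatives were 2 centrings, robust moderation, leaving out groups, an exact permutation test, the 100 and 1000 µg/kg groups alone, a margin of 1, the middle class at 10 µg/kg, and centring 7900HT genes with 4 and 2 rows apart. The procedures were tested on simulated data. Of 50 gene names 47 matched a current RefSeq symbol (GRCr8) and 3 an older one. No replicate values were joined to labels, so p-values measure the spread between groups. Python 3.11.15, pandas 2.3.3, numpy 2.4.6 and matplotlib 3.10.9 were also used.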

Additional observations from a re-analysis of the deposited data

Results flagged for a closer look

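In the test of the strain difference at the high doses on the OpenArray, Long-Evans minus Han/Wistar was 2.55 for Ahrr, 1.60 for Scn4b, -1.83 for Cyp1b1 and -1.07 for Aldh3a1 (limma adjusted p = 0.0288 each, over 49 targets). On the 7900HT the rise of Aldh3a1 from the lowest to the high doses was smaller in Long-Evans by 13.0 log2 units (-13.0, SE 2.90, limma adjusted p = 0.0251, 1 call of 37 targets with 3 at an unadjusted p under 0.05), whereas on the OpenArray it was larger by 4.02 and not called. At 0.001 and 0.01 µg/kg Aldh3a1 stood on the 7900HT at 5.21 and 5.97 in Long-Evans, against -4.15 and -8.13 in Han/Wistar, by the authors' deposited table, the reverse order of the OpenArray.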

How the results depend on the processing

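Single targets kept their direction and their side of the threshold in 672 cases, lost the call in 35, gained it in 20 and turned in 3. With mean-centred groups Ahr was called lower in Long-Evans (-0.762) and Han/Wistar (-0.714), and Cyb5a in Han/Wistar (-0.781). The exact permutation test gave 0 calls on the OpenArray in Long-Evans, where 20 splits allow no p below 0.1, and 0 on the 7900HT in both strains. Slope calls were 4 at 100 and 1000 µg/kg alone, where 5 targets were flat, and 44 were flat at a margin of 1. High against middle doses in Han/Wistar gave 1 call with mean-centred groups and 0 against 10 µg/kg alone, and both strains together gave 3. Strain calls were 7 with median centring and 0 with limma's robust moderation (13 at an unadjusted p under 0.05). On the 7900HT the Han/Wistar calls against corn oil were 17 with mean centring and 17 with the gene sets centred apart. Leaving out 1 group gave, on the OpenArray, 41 to 45 calls against corn oil in Long-Evans and 36 to 41 in Han/Wistar, 39 to 44 and 30 to 34 against the lowest doses, 0 to 1 and 0 to 2 against the middle doses, 14 to 19 for both strains, 0 to 1 slopes, 0 to 1 slope differences, 0 to 6 strain differences, 0 differences in the rise and 0 to 32 flat targets. On the 7900HT it gave 1 to 20 calls in Long-Evans and 2 to 19 in Han/Wistar against corn oil. No paired analysis was possible because each group has 1 deposited value. The number of groups limits precision, with 3 to 5 per strain for the high doses and corn oil and fewer for the middle and lowest doses. Corn oil at other times differs in time of collection.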

Other observations

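Ahrr and Exoc3 moved in step over the high doses on the OpenArray, and their annotated starts in RefSeq (GRCr8) lie 97.7 kb apart on chromosome 1, on the same strand. In both strains both targets were lower at 1000 than at 100 µg/kg (Ahrr by -1.97 in Long-Evans and -2.36 in Han/Wistar, Exoc3 by -1.43 and -2.42), and in Han/Wistar both were higher again at 3000 µg/kg (by 1.12 and 1.72). The directions are not particular to this pair. In all, 23 of 49 targets were lower at 1000 than at 100 µg/kg in both strains. Cyp1a1, Aldh3a1, Nqo1, Cyp2s1, Sdc1 and Col18a1 were among those also higher again at 3000 µg/kg, with smaller steps. Ahrr and Exoc3 were 2 of the 4 targets called in the fit of 100 and 1000 µg/kg alone. On the 7900HT the step to 1000 from 100 µg/kg was 1.31 in Long-Evans and -6.19 in Han/Wistar for Ahrr and -2.72 and 0.73 for Exoc3, so the joint movement was not seen there. The pair was chosen after its values were seen, and no test was made.

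Among the targets called higher in both strains, 11 of 23 with a promoter held the core GCGTG (47.8%), and among those called lower 2 of 11 did (18.2%), beside 19 of 43 (44.2%) over the panel and 25.9% of all promoters, and no test was made. Cyp1a1, Aldh3a1 and Derl1, called higher, and Ern1 and Lasp1, called lower, had no promoter to search.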
